A study of Mus musculus with 4 samples.

Results

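The collagen genes of the mouse were followed in RNA sequencing of embryos and embryonic livers labelled as lacking Adar1 together with Mavs, or Adar1 alone. The genes are all protein-coding symbols built as Col, a number, the letter a and a number, and the values of all isoforms of a symbol were added up. The rule found 44 genes among 33783 named genes, and they were grouped as 8 fibrillar, 7 cartilage, 8 basement membrane and 21 other collagens. All 44 had values in both liver libraries, and 7 lay on the part of the genome held for both embryo libraries.

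Total RNA was sequenced from 1 library in each of 4 groups. Embryonic livers at E15.5 (the day of gestation), strain label C57B6/J, carried the genotype label Adar1-/- Mavs-/- or Adar1-/-, and whole embryos at E11.5, strain label C57B16/N, carried the same pair of labels. Every library is labelled as lacking Adar1, which encodes an enzyme that edits adenosine to inosine in double-stranded RNA, so no wild-type or Mavs-only group is part of the comparison. MAVS is the adaptor protein of the cytosolic RNA sensors, and the comparison asks how RNA levels differ when it is lost in addition to Adar1. How the alleles were made, and whether animals were pooled, the sources used here do not say.

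Collagens are triple-helical proteins of the extracellular matrix, assembled from chains of the same or of different genes. Fibrillar collagens form the fibres of connective tissue, basement membrane collagens form the sheets under epithelia and around vessels and muscle fibres, and the remaining types bind to fibres, form filaments or span the cell membrane. In liver, stellate cells and fibroblasts are known as main producers of fibrillar collagen, while endothelial cells and hepatocytes make part of the basement membrane types.

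Levels are FPKM, fragments per length of transcript and per mapped fragments of the library, as deposited, with the lower and upper bound of the deposited estimate where bounds are given. These bounds cover the estimation within a library and not the variation between animals. The log2 ratio divides FPKM plus 1 of the sample labelled Adar1-/- Mavs-/- by that of the sample labelled Adar1-/-, after 1 scaling factor per tissue (0.995 in liver, 1.34 in embryos). A gene was counted with at least 1 FPKM in either library, and 2-fold means a log2 ratio of 1 or more above or below 0. Because each group has 1 library, no difference has a replicate check, no test was possible, and each value compares 2 libraries rather than 2 genotypes.

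The sources used here do not give read totals. A guide to depth is the coverage per FPKM, at 7.13 and 5.62 in the liver and embryo libraries labelled Adar1-/- Mavs-/-, against 8.58 and 3.48 in those labelled Adar1-/-. The targeted gene goes against 1 liver label. Adar had 4.11 FPKM in the liver labelled Adar1-/- Mavs-/-, with 3 of 8 reference isoforms above 0 and no stretch of the gene unspanned, against 5.56 FPKM, 0 of 8 isoforms and an unspanned stretch of 16246 bases in the liver labelled Adar1-/-. Mavs had 9.96 FPKM in the liver labelled Adar1-/- Mavs-/-, against 7.26 FPKM in the liver labelled Adar1-/-. In each of these libraries 2 of 4 Mavs reference isoforms were above 0 and no stretch of the gene was unspanned. Liver directions are therefore directions between libraries with these labels, and the same check on the embryos was not analysed here. Both liver libraries held the liver markers, with 6 of 6 hepatocyte genes above 1 FPKM and Alb, which encodes albumin, at 6648 FPKM in the liver labelled Adar1-/- Mavs-/- and 4787 FPKM in the liver labelled Adar1-/-.

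In E15.5 liver, collagen RNA was lower in the liver labelled Adar1-/- Mavs-/- across all classes. The 44 genes summed to 204 FPKM there, against 454 FPKM in the liver labelled Adar1-/-. Of 28 counted collagens 16 were at least 2-fold lower in the liver labelled Adar1-/- Mavs-/- and 0 were at least 2-fold higher. Over all 13853 counted genes, 9.73% were at least 2-fold lower and 6.60% at least 2-fold higher. Of those 2-fold genes 40.4% were higher in the liver labelled Adar1-/- Mavs-/-, or 24.1% with TPM scaling. The bounds of the 2 libraries were apart for all 16 collagens, and 8.76% of all genes were as low with bounds apart. A ratio below 0 was found for 26 of the 28, beside 58.0% of all genes. The median log2 ratio of the 28 genes was -1.13, beside -0.12 for all counted genes, and the values ran from -1.95 (Col1a2) to 0.15 (Col25a1). Within bulk RNA, fewer collagen-producing cells and less collagen RNA per cell cannot be told apart. The summed markers of muscle, bone, tendon and epidermis, given below, were also lower in the liver labelled Adar1-/- Mavs-/-. The part of such tissues in the collagen values was not tested.

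**Figure D1:**
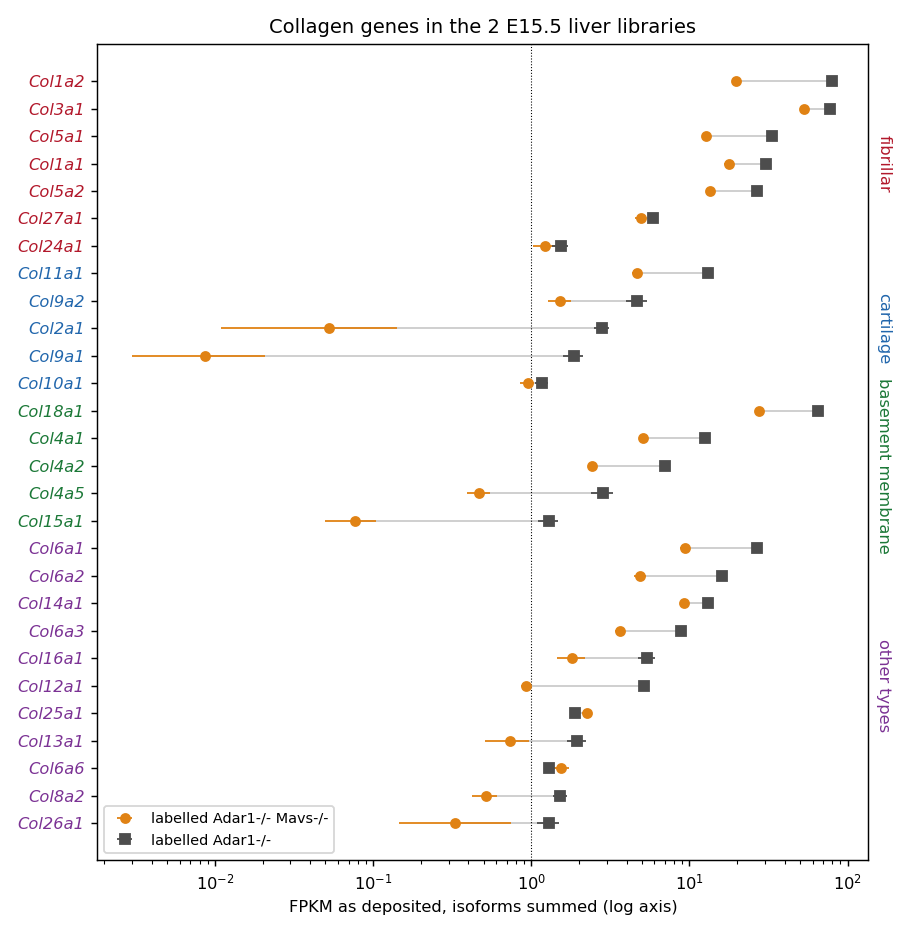
Level of each counted collagen in liver, in FPKM on a log axis, with the liver labelled Adar1-/- Mavs-/- as orange circles and the liver labelled Adar1-/- as dark squares. Horizontal lines on the points are the deposited bounds, grey lines join the 2 libraries and the dotted line marks 1 FPKM; 26 of the 28 genes were lower in the liver labelled Adar1-/- Mavs-/-.

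All 28 counted genes reached 1 FPKM in the liver labelled Adar1-/-, while 19 did so in the liver labelled Adar1-/- Mavs-/-, so the other 9 were counted only through the library in which they were higher. Among the 19 genes of at least 1 FPKM in both libraries, 11 were at least 2-fold lower, beside 5.85% of all 11612 such genes. With no filter on low values, 16 of 44 collagens were at least 2-fold lower, beside 6.28% of 21478 genes, and the median log2 ratio of the 44 was -0.64. Among genes of at least 5 FPKM in either library, 11 of 16 collagens were at least 2-fold lower, beside 9.22% of 8745 genes. At a limit of 1.5-fold, 21 of 28 were lower, beside 23.2% of all genes. At 10 FPKM or more there were 6 collagens in the liver labelled Adar1-/- Mavs-/- and 11 in the liver labelled Adar1-/-.

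The count also depends on the base composition of the transcripts. When ratios were centred within 10 bins of GC content, an alternative chosen after seeing the data, 9 of 28 collagens were at least 2-fold lower, beside 7.70% of all genes, with a median of -0.86. The 9 were Col1a2, Col2a1, Col4a5, Col6a1, Col6a2, Col9a1, Col11a1, Col12a1 and Col15a1. In every setting that gave a value, 24 of the 28 genes stayed below 0. The exceptions were Col6a6, Col13a1, Col25a1 and Col27a1, whose sign changed with a setting. At least 2-fold lower in every setting were 3 genes, namely Col1a2, Col6a1 and Col12a1. Of these, Col12a1 was counted only through the library in which it was higher. These settings do not include the comparison of single isoforms that span the gene, where the isoform of Col6a1 was listed at 0 in both libraries.

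**Figure D2:**
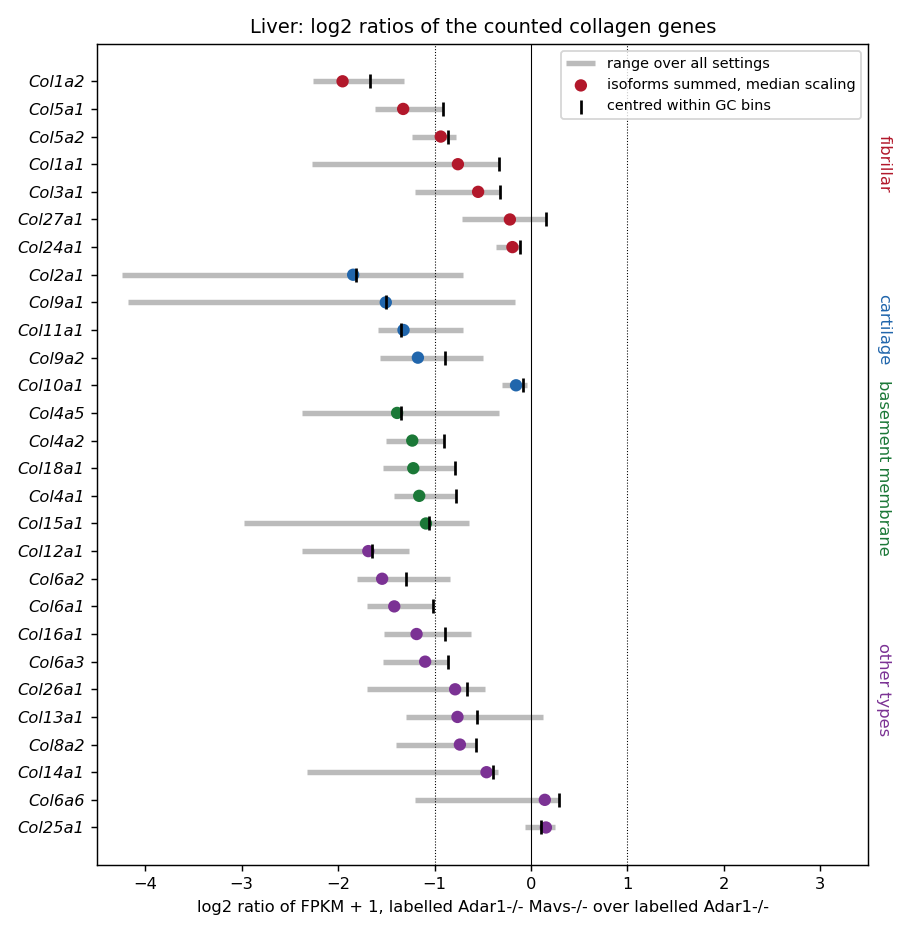
Log2 ratio of FPKM plus 1 in liver, the liver labelled Adar1-/- Mavs-/- over the liver labelled Adar1-/-, for the 28 counted collagens by class. Points are the summed isoforms with median scaling, black ticks the values centred within GC bins, grey bars the range over all settings and dotted lines the 2-fold limits; the points run from -1.95 to 0.15.

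The fibrillar class held most of the collagen RNA, with 60.1% of the summed collagen FPKM in the liver labelled Adar1-/- Mavs-/- and 56.0% in the liver labelled Adar1-/-. The liver labelled Adar1-/- Mavs-/- was at least 2-fold lower for 2 of 7 counted fibrillar genes, beside 9.73% of all counted genes. All 7 were below 0, beside 58.0% of all counted genes, with a median of -0.76. Col1a2 encodes the alpha-2 chain of type I collagen, the main fibre of bone, skin and tendon, and spans 4454814 to 4491543 of chromosome 6 (mm9). Its level was 19.7 FPKM (bounds 18.96 to 20.53) in the liver labelled Adar1-/- Mavs-/-, against 79.1 FPKM (bounds 76.8 to 81.3) in the liver labelled Adar1-/-, a log2 ratio of -1.95. With all isoforms summed, it ranked 1 of 44 collagens in the liver labelled Adar1-/- and 3 of 44 in the liver labelled Adar1-/- Mavs-/-. The first rank rests on short assembled isoforms, which held 63.4 of the 79.1 FPKM. The full-length isoform of Col1a2 had 15.7 FPKM in the liver labelled Adar1-/-, below the 49.6 FPKM of that of Col3a1. In the liver labelled Adar1-/- Mavs-/- it had 5.73 FPKM, a log2 ratio of -1.32.

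Col1a1, its partner chain in the type I trimer (chromosome 11, 94797538 to 94814356), stood at 17.7 FPKM (bounds 16.5 to 18.8) in the liver labelled Adar1-/- Mavs-/-, against 30.4 FPKM (bounds 29.6 to 31.3) in the liver labelled Adar1-/-. The log2 ratio was -0.76, within the 2-fold limit. This value rests on which isoforms enter: short assembled isoforms held 15.54 of the 17.7 FPKM in the liver labelled Adar1-/- Mavs-/- and 16.4 of the 30.4 FPKM in the liver labelled Adar1-/-. With reference isoforms only the ratio of Col1a1 was -2.27, weighted by isoform length it was -1.43, and centred within GC bins it was -0.34. The full-length isoform alone (ENSMUST00000001547) had 2.13 FPKM in the liver labelled Adar1-/- Mavs-/-, against 9.69 FPKM in the liver labelled Adar1-/-.

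Col3a1, the homotrimeric type III chain of soft tissues and vessel walls (chromosome 1, 45368383 to 45406551), had the most collagen RNA in the liver labelled Adar1-/- Mavs-/-. Its level there was 52.7 FPKM (bounds 51.4 to 53.9), against 77.1 FPKM (bounds 76.1 to 78.2) in the liver labelled Adar1-/-. The log2 ratio was -0.55, and the bounds did not overlap. Its full-length isoform stood further apart, with 21.0 FPKM in the liver labelled Adar1-/- Mavs-/- and 49.6 FPKM in the liver labelled Adar1-/-, a log2 ratio of -1.21.

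The type V chains, which start fibrils and set their width, differed in the same direction. Col5a1 had 12.8 FPKM in the liver labelled Adar1-/- Mavs-/-, against 33.4 FPKM in the liver labelled Adar1-/- (-1.33). Col5a2 had 13.6 FPKM in the liver labelled Adar1-/- Mavs-/-, against 26.8 FPKM in the liver labelled Adar1-/- (-0.94). Only Col5a1 of this pair passed the 2-fold limit, and it lay at -0.91 centred within GC bins. The minor fibrillar chains Col24a1 and Col27a1 had ratios of -0.19 and -0.22. Col24a1 had 1.22 FPKM in the liver labelled Adar1-/- Mavs-/- and 1.53 FPKM in the liver labelled Adar1-/-, and Col27a1, a chain of cartilage and other connective tissue, had 4.93 FPKM and 5.87 FPKM in the same order of libraries. Col5a3 was not counted.

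Ratios between chains within a library moved with the way isoforms were summed, apart from type IV. Col1a1 over Col1a2 was 0.894 in the liver labelled Adar1-/- Mavs-/- and 0.385 in the liver labelled Adar1-/-, but 0.479 and 0.518 weighted by isoform length, in the same order of libraries. Col3a1 over Col1a2 was 2.67 in the liver labelled Adar1-/- Mavs-/- and 0.976 in the liver labelled Adar1-/-, and it stayed higher in the liver labelled Adar1-/- Mavs-/- with length weighting, at 2.55 against 1.86. Col5a1 over Col5a2 was 0.941 in the liver labelled Adar1-/- Mavs-/- and 1.25 in the liver labelled Adar1-/-.

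The cartilage class was small in both liver libraries, with 7.69 FPKM in the liver labelled Adar1-/- Mavs-/-, against 24.8 FPKM in the liver labelled Adar1-/-. The liver labelled Adar1-/- Mavs-/- was at least 2-fold lower for 4 of 5 counted genes, beside 9.73% of all counted genes, with a class median of -1.32. Col2a1 and Col9a1 passed the filter only through the library in which they were higher. Each of the 4 calls was lost in some setting: those of Col9a1 and Col9a2 with length weighting, that of Col2a1 with reference isoforms only (-0.71) and that of Col11a1 with status OK isoforms (-0.70). Col2a1, the main fibre of cartilage (chromosome 15), had 0.0529 FPKM (bounds 0.0110 to 0.142) in the liver labelled Adar1-/- Mavs-/-, against 2.78 FPKM (bounds 2.48 to 3.08) in the liver labelled Adar1-/- (-1.84). Col9a1, a type IX chain that coats cartilage fibrils, had 0.00862 FPKM in the liver labelled Adar1-/- Mavs-/-, with a lower bound of 0, against 1.87 FPKM in the liver labelled Adar1-/- (-1.51). Both genes were close to 0 in the liver labelled Adar1-/- Mavs-/- and low in the other.

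Col9a2, another type IX chain, had 1.53 FPKM in the liver labelled Adar1-/- Mavs-/-, against 4.69 FPKM in the liver labelled Adar1-/- (-1.17). Col11a1, a type XI chain made in cartilage and also in other mesenchyme, had 4.66 FPKM in the liver labelled Adar1-/- Mavs-/-, against 13.1 FPKM in the liver labelled Adar1-/- (-1.32), and it held most of the class in both libraries. Col10a1, the collagen of hypertrophic cartilage, had 0.949 FPKM in the liver labelled Adar1-/- Mavs-/- and 1.17 FPKM in the liver labelled Adar1-/-, a ratio of -0.16. Col9a3 and Col11a2 were not counted and went in opposite directions at low levels. Col9a3 had 0.368 FPKM in the liver labelled Adar1-/- Mavs-/- and 0.192 FPKM in the liver labelled Adar1-/- (0.20). Col11a2 had 0.125 FPKM and 0.991 FPKM in the same order of libraries (-0.82).

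The 9 cartilage genes that are not collagens summed to 1.996 FPKM in the liver labelled Adar1-/- Mavs-/-, with Matn1, a cartilage matrix protein, listed at 0, and to 4.67 FPKM in the liver labelled Adar1-/-. Of the 2 that were counted, Cnmd, the cartilage protein chondromodulin, had 0.0841 FPKM in the liver labelled Adar1-/- Mavs-/-, against 1.68 FPKM in the liver labelled Adar1-/- (-1.31). It passed the 1 FPKM filter only through the library in which it was higher. Hapln1, the link protein of cartilage proteoglycan, had 1.02 FPKM in the liver labelled Adar1-/- Mavs-/- and 0.958 FPKM in the liver labelled Adar1-/-. The part of cartilage RNA in the cartilage collagen values was not tested.

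Of the 8 basement membrane collagens, 5 were counted. All 5 were at least 2-fold lower in the liver labelled Adar1-/- Mavs-/-, beside 9.73% of all counted genes. They lay between -1.39 and -1.09, with a median of -1.22. Col4a5 and Col15a1 passed the filter only through the library in which they were higher, which leaves Col4a1, Col4a2 and Col18a1 with at least 1 FPKM in both. The 3 members below the filter lay near 0, with Col4a3 at 0.02, Col4a4 at 0.01 and Col4a6 at -0.15. Centred within GC bins, 2 of the 5 counted genes stayed past the limit, Col4a5 at -1.34 and Col15a1 at -1.05. Col18a1, the precursor of endostatin (chromosome 10, 76514923 to 76629293, minus strand), was the most abundant of the class. Its level was 27.4 FPKM (bounds 26.6 to 28.2) in the liver labelled Adar1-/- Mavs-/-, against 64.9 FPKM (bounds 62.0 to 67.8) in the liver labelled Adar1-/- (-1.22, or -0.79 centred within GC bins).

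Col18a1 is known to start at alternative promoters, the inner of which is known for its use in liver. The values of reference isoforms that begin at either start separate them. The sequences around both starts are printed because inner-start reference isoforms held most of the value in liver and were listed at 0 in embryos. Those of Col4a1 and Col4a2 are printed because these genes start next to each other on opposite strands. Each window runs from 250 bases before to 50 bases after a start, on the gene's own strand from 5′ to 3′, taken from RefSeq on GRCm38.p6. The measured positions are on mm9 and are given separately. Capitals mark, on either strand, the letters TATAAA of a TATA box, the letters CCAAT of a CAAT box and the letters GGGCGG of a GC box, and no match overlapped another in the printed windows.
Col18a1, inner start (chr10:77113656-77113955, minus strand): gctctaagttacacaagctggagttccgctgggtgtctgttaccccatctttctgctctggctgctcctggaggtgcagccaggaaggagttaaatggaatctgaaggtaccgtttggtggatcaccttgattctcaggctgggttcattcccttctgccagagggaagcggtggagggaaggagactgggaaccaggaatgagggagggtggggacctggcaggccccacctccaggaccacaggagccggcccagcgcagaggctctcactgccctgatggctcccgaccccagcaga
Col18a1, upstream start (chr10:77166481-77166780, minus strand): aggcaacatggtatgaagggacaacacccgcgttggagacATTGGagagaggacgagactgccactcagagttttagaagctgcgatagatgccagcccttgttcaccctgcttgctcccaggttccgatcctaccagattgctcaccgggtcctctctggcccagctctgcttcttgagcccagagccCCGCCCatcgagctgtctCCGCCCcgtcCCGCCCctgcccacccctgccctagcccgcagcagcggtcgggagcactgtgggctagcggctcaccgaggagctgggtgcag
Col4a1 (chr8:11312777-11313076, minus strand): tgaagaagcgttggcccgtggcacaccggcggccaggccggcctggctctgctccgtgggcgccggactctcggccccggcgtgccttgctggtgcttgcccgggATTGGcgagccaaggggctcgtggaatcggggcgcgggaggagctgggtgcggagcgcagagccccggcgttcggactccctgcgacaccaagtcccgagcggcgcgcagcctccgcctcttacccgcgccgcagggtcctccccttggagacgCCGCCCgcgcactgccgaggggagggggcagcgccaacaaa
Col4a2 (chr8:11312555-11312854, plus strand): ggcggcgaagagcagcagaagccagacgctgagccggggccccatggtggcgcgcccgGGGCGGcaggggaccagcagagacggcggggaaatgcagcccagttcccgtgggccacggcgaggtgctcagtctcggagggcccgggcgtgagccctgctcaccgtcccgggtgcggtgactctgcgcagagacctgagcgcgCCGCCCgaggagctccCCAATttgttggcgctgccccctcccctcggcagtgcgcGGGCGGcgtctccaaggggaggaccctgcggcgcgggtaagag
The inner window of Col18a1 held none of the 3 motifs, and the upstream window held 3 GGGCGG matches at 61, 43 and 33 bases before the start and 1 CCAAT match at 210 bases before it. Among all 32817 RefSeq windows of this length, 35.6% held GGGCGG, 37.4% held CCAAT and 13.6% held TATAAA. Of 38 windows of 35 collagen genes, 23 held GGGCGG, 13 held CCAAT and 5 held TATAAA. A match describes the letters in the window, not a bound site.

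In liver most Col18a1 RNA came from isoforms of the inner start, 52602 to 52872 bases from the upstream one on mm9. Reference isoforms of the inner start had 23.0 FPKM in the liver labelled Adar1-/- Mavs-/-, against 56.3 FPKM in the liver labelled Adar1-/- (-1.26). The isoform of the upstream start had 4.40 FPKM in the liver labelled Adar1-/- Mavs-/-, against 8.59 FPKM in the liver labelled Adar1-/- (-0.83). The inner start held 83.9% of these reference isoforms in the liver labelled Adar1-/- Mavs-/- and 86.8% in the liver labelled Adar1-/-, so its share hardly moved while both starts were lower. In the embryo libraries the inner-start isoforms were listed at 0, and the upstream isoform had 17.1 FPKM in the Adar1-/- Mavs-/- library and 32.2 FPKM in the Adar1-/- library, a scaled log2 ratio of -0.47. Most of the embryo value lay in isoforms not assigned to either start. They held 29.6 of 46.8 FPKM in the Adar1-/- Mavs-/- library and 71.2 of 103 FPKM in the Adar1-/- library. The start used for most Col18a1 RNA in embryos is therefore not settled by these values.

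**Figure D3:**
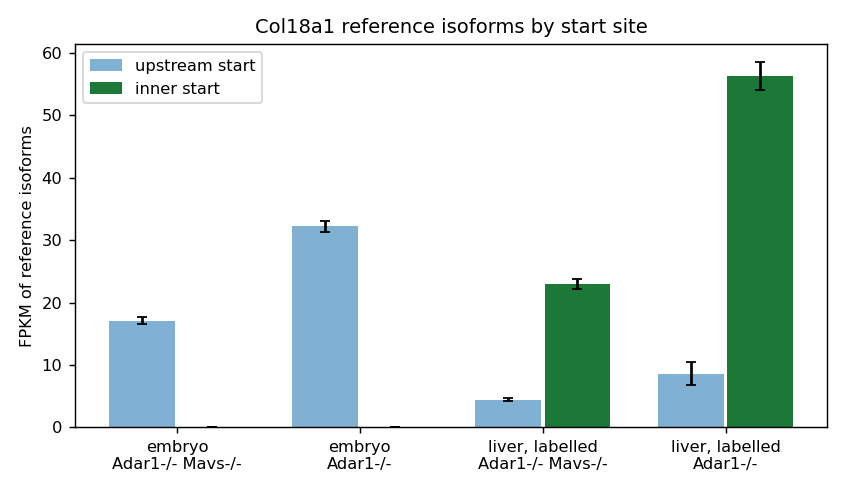
FPKM of Col18a1 reference isoforms by start site in the 4 libraries, with the library labelled Adar1-/- Mavs-/- left of the one labelled Adar1-/- in each tissue; bars are sums of isoforms and error bars the deposited bounds. The inner start had 23.0 and 56.3 FPKM in the liver libraries and was listed at 0 in the embryo libraries; isoforms that begin elsewhere are not drawn.

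Col4a1 and Col4a2 encode the chains that trimerise into the common network of basement membranes. They lie head to head on chromosome 8 (mm9 11198423 to 11312826 on the minus strand and 11312805 to 11449287 on the plus strand). In the RefSeq windows above, their starts are 22 bases apart and the windows share 78 bases. Col4a1 had 5.07 FPKM (bounds 4.87 to 5.27) in the liver labelled Adar1-/- Mavs-/-, against 12.5 FPKM (bounds 12.2 to 12.8) in the liver labelled Adar1-/- (-1.16). Col4a2 had 2.42 FPKM (bounds 2.28 to 2.56) in the liver labelled Adar1-/- Mavs-/-, against 7.004 FPKM (bounds 6.79 to 7.22) in the liver labelled Adar1-/- (-1.23).

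The pair was lower by nearly the same amount, and each value came from a single reference isoform in both libraries. Col4a1 over Col4a2 was 2.09 (bounds 1.90 to 2.31) in the liver labelled Adar1-/- Mavs-/- and 1.78 (bounds 1.69 to 1.88) in the liver labelled Adar1-/-, whichever isoforms were summed. The sources used here do not say if reads keep their strand, which bears on the few bases where the genes overlap. Col4a5, a chain of the kidney and muscle basement membrane network (chromosome X), had 0.467 FPKM in the liver labelled Adar1-/- Mavs-/-, against 2.84 FPKM in the liver labelled Adar1-/- (-1.39). Col15a1, a relative of Col18a1 found around muscle fibres and capillaries, had 0.0773 FPKM in the liver labelled Adar1-/- Mavs-/-, against 1.29 FPKM in the liver labelled Adar1-/- (-1.09). Both were made up of several short isoforms in the liver labelled Adar1-/-, and weighting by length, an alternative chosen after seeing the data, ended the 2-fold call of each. 

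The other types held 18.2% of collagen FPKM in the liver labelled Adar1-/- Mavs-/- and 18.8% in the liver labelled Adar1-/-. The liver labelled Adar1-/- Mavs-/- was at least 2-fold lower for 5 of 11 counted genes, beside 9.73% of all counted genes, with a median of -0.79. The type VI chains, which form beaded filaments around cells, were 3 of the 5. Col6a1 had 9.43 FPKM in the liver labelled Adar1-/- Mavs-/-, against 26.8 FPKM in the liver labelled Adar1-/- (-1.42). Col6a2, its neighbour on chromosome 10, had 4.89 FPKM in the liver labelled Adar1-/- Mavs-/-, against 16.1 FPKM in the liver labelled Adar1-/- (-1.54). Col6a3 had 3.62 FPKM in the liver labelled Adar1-/- Mavs-/-, against 8.85 FPKM in the liver labelled Adar1-/- (-1.10).

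These chains of the common type VI trimer differed by similar amounts, and their bounds were apart in all 3 cases. Col6a6, an alternative chain of the family, stood apart from them, with 1.54 FPKM in the liver labelled Adar1-/- Mavs-/- and 1.30 FPKM in the liver labelled Adar1-/- (0.14). Its single reference isoform above 0 in the liver labelled Adar1-/- was listed at 0 in the liver labelled Adar1-/- Mavs-/-, where assembled isoforms held the value, so with reference isoforms only the ratio was -1.20.

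Among fibril-associated collagens, which bind to the surface of larger fibres, Col12a1 had 0.926 FPKM in the liver labelled Adar1-/- Mavs-/-, against 5.19 FPKM in the liver labelled Adar1-/- (-1.69). Col16a1 had 1.81 FPKM in the liver labelled Adar1-/- Mavs-/-, against 5.38 FPKM in the liver labelled Adar1-/- (-1.19). Both were at least 2-fold lower, Col16a1 only without length weighting or GC centring. Col14a1, of the same kind, had 9.22 FPKM in the liver labelled Adar1-/- Mavs-/- and 13.0 FPKM in the liver labelled Adar1-/- (-0.46), and it fell short of 2-fold in all settings but the one restricted to isoforms with status OK, where it was -2.32.

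With 1 FPKM added to each value, the remaining counted genes lay within the 2-fold limit. With 0.1 FPKM added instead, Col8a2, Col13a1 and Col26a1 were past it, at -1.40, -1.29 and -1.70. These genes were counted only through the library in which they were higher. Col8a2, a short-chain network collagen, had 0.516 FPKM in the liver labelled Adar1-/- Mavs-/- and 1.52 FPKM in the liver labelled Adar1-/- (-0.74). Col13a1, a transmembrane collagen of cell adhesions, had 0.737 FPKM in the liver labelled Adar1-/- Mavs-/- and 1.94 FPKM in the liver labelled Adar1-/- (-0.76). Col26a1 had 0.328 FPKM in the liver labelled Adar1-/- Mavs-/- and 1.29 FPKM in the liver labelled Adar1-/- (-0.79). Col25a1, a transmembrane collagen best known from brain, had 2.24 FPKM in the liver labelled Adar1-/- Mavs-/- and 1.90 FPKM in the liver labelled Adar1-/- (0.15), all of it from assembled isoforms over the last part of the gene.

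The 16 genes that were not counted had at most 0.835 FPKM in the liver labelled Adar1-/- Mavs-/- and at most 0.991 FPKM in the liver labelled Adar1-/-. Besides those named with their classes they were Col6a4 and Col6a5, the anchoring fibril gene Col7a1, Col8a1, the fibril-associated Col19a1, Col20a1 and Col22a1, the transmembrane Col17a1 and Col23a1, and Col28a1. Col20a1 had 0.835 FPKM in the liver labelled Adar1-/- Mavs-/- and was listed at 0 in the liver labelled Adar1-/-. Col22a1 was listed at 0 in the liver labelled Adar1-/- Mavs-/- and had 0.120 FPKM in the liver labelled Adar1-/-. For these genes the levels are too low to read a direction.

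In a sum of FPKM a short isoform weighs as much as a long one, so the same comparison was made on single isoforms. Assembled isoforms held 46.4% of collagen FPKM in the liver labelled Adar1-/- Mavs-/- and 40.6% in the liver labelled Adar1-/-. For each gene the most abundant reference isoform whose ends span at least 90% of the gene was taken, whatever its transcript length. For Col5a2 this was a short isoform of 1974 bases (-0.95) and not the one of 6625 bases. From such an isoform 14 collagens had at least 1 FPKM in either library. Of these, 9 were at least 2-fold lower in the liver labelled Adar1-/- Mavs-/-, and the median was -1.17, beside 17.6% and a median of -0.19 over all 9637 genes with such an isoform. Col6a6, Col8a2, Col12a1 and Col27a1 entered only through the library in which they were higher. Among the 10 collagens whose isoform had at least 1 FPKM in both libraries, 7 were at least 2-fold lower, beside 8.004% of 7384 genes. Col14a1 was nearest to 0 with -0.15, and Col1a1 was the furthest with -1.78.

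Genes that make, process and bind collagen, from lists of 96 genes chosen with earlier results of these data known, had a median log2 ratio of -0.75. The liver labelled Adar1-/- Mavs-/- was at least 2-fold lower for 20 of 77 counted genes, beside 9.73% of all genes, and at least 2-fold higher for 0, beside 6.60%. Centred within GC bins, 12 of the 77 were at least 2-fold lower, beside 7.70% of all genes. Among genes of at least 1 FPKM in both libraries 17 of 57 were, beside 5.85%. The lists that follow are small, and in the receptors and the regulators the share was near that of all genes.

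Of 18 counted genes for collagen synthesis and secretion 4 were at least 2-fold lower in the liver labelled Adar1-/- Mavs-/-, with a median of -0.72. P3h1, a prolyl 3-hydroxylase of the collagen chain, had 2.72 FPKM in the liver labelled Adar1-/- Mavs-/-, against 14.0 FPKM in the liver labelled Adar1-/- (-2.01). Plod3, a lysyl hydroxylase, had 2.21 FPKM in the liver labelled Adar1-/- Mavs-/-, against 10.99 FPKM in the liver labelled Adar1-/- (-1.91). P4ha2, a catalytic subunit of prolyl 4-hydroxylase, was at -1.33 and Fkbp10, a procollagen folding factor, at -1.12. Each of these 4 calls was lost in some setting. P3h1 was at -0.83 with length weighting and -0.62 with status OK isoforms, and Plod3 at -0.72 with status OK isoforms. P4ha2 was at -0.67 with length weighting, and Fkbp10 at -0.83 centred within GC bins. P4hb, the most abundant and a subunit of the same hydroxylase as well as a general disulfide isomerase, had 183 FPKM in the liver labelled Adar1-/- Mavs-/- and 296 FPKM in the liver labelled Adar1-/- (-0.70).

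Of 9 counted genes for processing and crosslinking 2 were at least 2-fold lower in the liver labelled Adar1-/- Mavs-/-, with a median of -0.75. They were Pcolce (-1.15, or -0.93 centred within GC bins), which enhances removal of the procollagen C-terminus, and the crosslinking enzyme Lox (-1.10). Its relatives Loxl2 and Loxl1 were at -0.96 and -0.81, and Bmp1, the protease that cuts the C-terminus, was at -0.75. Among 7 genes of collagen degradation 2 were at least 2-fold lower, the metalloproteases Mmp14 (-1.26) and Mmp2 (-1.14), and the list median was -0.59. Mmp2 lost this call centred within GC bins (-0.94) and with length weighting (-0.96). The protease inhibitor Timp1 was at -0.84, and Mmp8, a collagenase of neutrophils, was at 0.75, or -1.34 with reference isoforms only.

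The 8 counted receptors had a median of 0.14, the only one of these lists above 0 with this scaling. It changed sign with TPM scaling (-0.15), reference isoforms only (-0.20), status OK isoforms (-0.08) and length weighting (-0.18). Mrc2, an uptake receptor of mesenchymal cells, was the only receptor at least 2-fold lower in the liver labelled Adar1-/- Mavs-/- (-1.14). Mrc2 was at -0.87 centred within GC bins and -0.75 with length weighting. Gp6, the collagen receptor of platelets, had 2.61 FPKM in the liver labelled Adar1-/- Mavs-/- and 1.17 FPKM in the liver labelled Adar1-/- (0.73). The epithelial receptor Ddr1 was at -0.49, the integrin chain Itga2 at 0.41, and Itgb1, its beta partner and the most abundant receptor, at 0.17. The sign changed for Gp6 with status OK isoforms (-0.08), for Itga2 with length weighting (-0.26) and for Itgb1 with TPM (-0.15). Megakaryocyte markers moved with Gp6, with a sum of 129 FPKM in the liver labelled Adar1-/- Mavs-/-, against 64.4 FPKM in the liver labelled Adar1-/-, and a median log2 ratio of 0.73. Their part in the Gp6 value was not tested.

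Fibril partners had the lowest median of the related lists, at -0.97, and 5 of 11 were at least 2-fold lower in the liver labelled Adar1-/- Mavs-/-. Ogn, a small proteoglycan of connective tissue, had 6.78 FPKM in the liver labelled Adar1-/- Mavs-/-, against 30.4 FPKM in the liver labelled Adar1-/- (-2.02). The direction of Ogn turned with length weighting (1.14) and with status OK isoforms (2.95). Thbs2, a matricellular protein, was at -1.53, or -0.94 with reference isoforms only, and Sparc, a collagen-binding protein, was at -1.35. Fibronectin, Fn1, had 39.2 FPKM in the liver labelled Adar1-/- Mavs-/-, against 95.5 FPKM in the liver labelled Adar1-/- (-1.27). The 16 basement membrane partners had a median of -0.78, and 5 of them were at least 2-fold lower, 4 of them with bounds apart. They included nephronectin, Npnt (-1.11), agrin, Agrn (-1.06) and the laminin chain Lamb1 (-1.05). Agrn turned to 0.13 with status OK isoforms, and Npnt was at -0.43 with status OK isoforms and -0.36 with length weighting. Lamb1 was at -0.88 centred within GC bins. Perlecan, Hspg2, had 2.03 FPKM (bounds 0.590 to 53.1) in the liver labelled Adar1-/- Mavs-/- and 6.08 FPKM (bounds 5.89 to 6.26) in the liver labelled Adar1-/- (-1.23), so its bounds overlapped and allow ratios between -2.19 and 2.97. Nidogen, Nid1, was the most abundant of that list (-0.83).

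Of 8 counted regulators of collagen genes 1 was at least 2-fold lower in the liver labelled Adar1-/- Mavs-/-, with a median of -0.89. This was Sox5, a cofactor of cartilage gene expression, which was listed at 0 in the liver labelled Adar1-/- Mavs-/- and had 2.34 FPKM in the liver labelled Adar1-/-. Its partner Sox6, which also acts in red blood cells, had 11.7 FPKM in the liver labelled Adar1-/- Mavs-/- and 22.8 FPKM in the liver labelled Adar1-/- (-0.91, or 0.63 with length weighting and 3.66 with status OK isoforms). Tgfb1, a growth factor that raises fibrillar collagen, was at -0.999, just short of the limit, and Tgfb2 at -0.95.

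Markers of muscle, bone, tendon and epidermis moved with the collagens, and their part in the collagen values was not tested. Skeletal muscle genes summed to 9.42 FPKM in the liver labelled Adar1-/- Mavs-/-, of which Mylpf, a myosin light chain, held 8.93, against 142 FPKM in the liver labelled Adar1-/-. All 7 passed the 2-fold limit downwards, beside 9.73% of all counted genes, and their median was -3.15. Only Mylpf had at least 1 FPKM in both libraries, and it was at -0.25 with status OK isoforms. The others were counted only through the library in which they were higher. Heart muscle genes summed to 1.08 FPKM in the liver labelled Adar1-/- Mavs-/-, against 27.2 FPKM in the liver labelled Adar1-/-. All 4 that were counted were at least 2-fold lower (-2.16), and 0 of them had at least 1 FPKM in both libraries. Bone genes summed to 3.01 FPKM in the liver labelled Adar1-/- Mavs-/-, with Ibsp, bone sialoprotein, listed at 0, against 10.8 FPKM in the liver labelled Adar1-/-. Tendon genes summed to 0.975 FPKM in the liver labelled Adar1-/- Mavs-/-, with Tnmd, tenomodulin, listed at 0, against 4.71 FPKM in the liver labelled Adar1-/-. Epidermis genes summed to 1.77 FPKM in the liver labelled Adar1-/- Mavs-/-, with the basal keratin Krt5 listed at 0, against 8.16 FPKM in the liver labelled Adar1-/-. In each of these 3 lists 1 of 2 counted genes was at least 2-fold lower, beside 9.73% of all counted genes. They were Ibsp, Tnmd and Krt15. Each was counted only through the library in which it was higher.

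Markers of cells inside the liver and of mesothelium had medians nearer to 0. The 11 stellate cell and fibroblast genes other than collagens had a median of -0.39. They summed to 105 FPKM in the liver labelled Adar1-/- Mavs-/- and 128 FPKM in the liver labelled Adar1-/-. At least 2-fold lower was 1 of the 11, near the 9.73% of all counted genes. This was Des (-1.89), which encodes the intermediate filament of muscle and stellate cells. Dcn, the proteoglycan decorin, had 35.9 FPKM in the liver labelled Adar1-/- Mavs-/- and 41.1 FPKM in the liver labelled Adar1-/-. Reln, the glycoprotein reelin, had the highest level of the list in the liver labelled Adar1-/-, with 32.9 FPKM in the liver labelled Adar1-/- Mavs-/- and 41.9 FPKM in the liver labelled Adar1-/- (-0.35). Of the 11 genes 9 were below 0, among them Acta2, smooth muscle actin (-0.91), Rgs5 (-0.77), Pdgfra (-0.65) and Hand2 (-0.59). The 2 above 0 were Pdgfrb, a growth factor receptor (0.29, with bounds of -0.07 to 0.61), and the proteoglycan lumican, Lum (0.20), and both turned below 0 with reference isoforms only. Endothelial genes summed to 58.8 FPKM in the liver labelled Adar1-/- Mavs-/- and 89.2 FPKM in the liver labelled Adar1-/-, with a median of -0.43. At least 2-fold lower was 1 of 6, beside 9.73% of all counted genes. This was the junction gene Cdh5 (-1.39, or 2.69 with reference isoforms only). Stab2, the most abundant of the 6, was at -0.98, and all 6 were below 0. Mesothelial genes summed to 6.60 FPKM in the liver labelled Adar1-/- Mavs-/- and 8.91 FPKM in the liver labelled Adar1-/-, with 0 of 3 at least 2-fold lower. Medians were 0.12 for the 6 hepatocyte genes and 0.15 for the 4 erythroid genes, and TPM scaling turned both below 0.

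**Figure D4:**
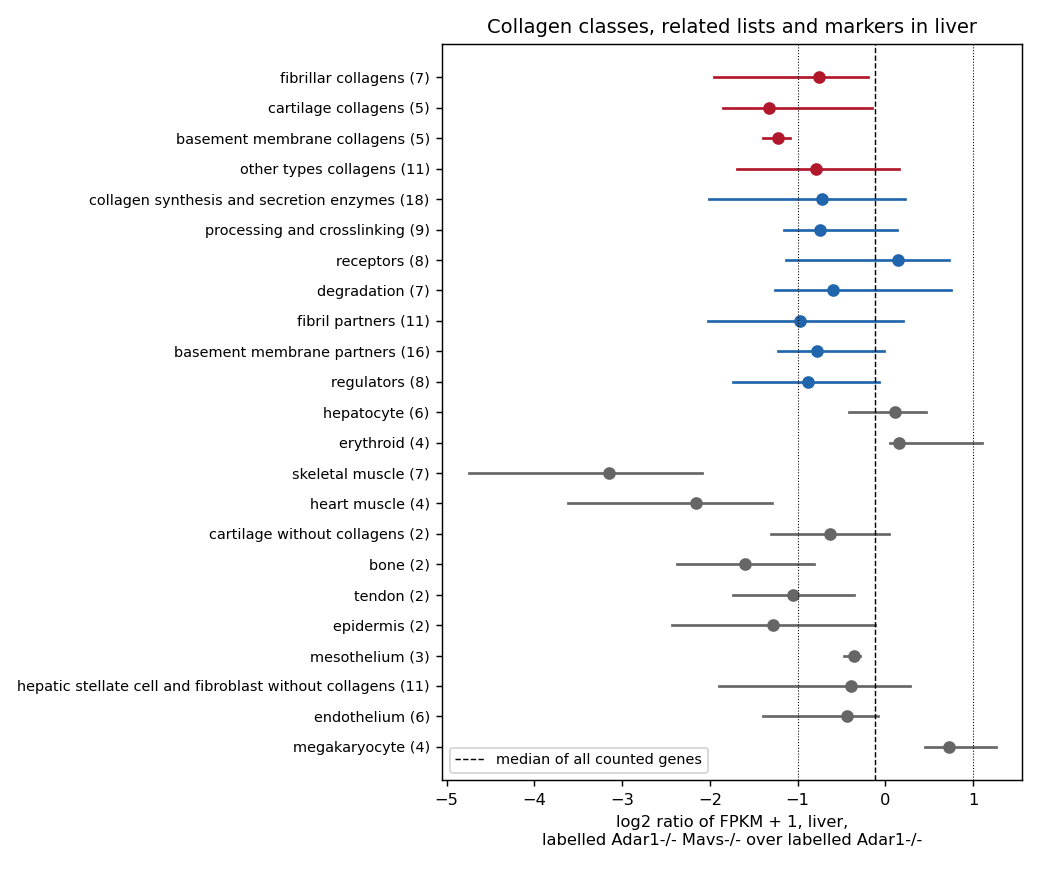
Median (point) and lowest to highest value (line) of the log2 ratio of FPKM plus 1 in liver, the liver labelled Adar1-/- Mavs-/- over the liver labelled Adar1-/-, for the collagen classes in red, related lists in blue and tissue markers in grey, with the number of counted genes in parentheses. The dashed line is the median of all counted genes (-0.12) and dotted lines mark 2-fold. Skeletal muscle had the lowest median (-3.15), with 1 of its 7 genes at 1 FPKM or more in both libraries. The collagen classes lay between -1.32 and -0.76.

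In E11.5 embryos, 7 collagens lay on the part of the genome held for both libraries (chromosomes 10 and 11 and part of chromosome 12), and 6 were counted. All 6 were below 0, beside 58.5% of all counted genes, 1 was at least 2-fold lower in the embryo library labelled Adar1-/- Mavs-/- and 0 were at least 2-fold higher. Over all 1918 counted genes, 9.80% were at least 2-fold lower, 8.65% with bounds apart, and 6.57% at least 2-fold higher. The median of the 6 was -0.75, beside -0.12 for all counted genes. Of all 2-fold genes 40.1% were higher in the embryo library labelled Adar1-/- Mavs-/-, or 20.8% with FPKM as deposited and 7.30% with TPM. The collagen count moved with the setting: with FPKM as deposited 4 of 6 were at least 2-fold lower, beside 16.7% of all genes, with TPM 6 of 6, beside 38.4%, and with isoforms weighted by length 0, beside 6.30%. The scalings thus moved all genes as well as the collagens. At a limit of 1.5-fold, 5 of 6 were lower, beside 20.3% of all genes.

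The gene past the limit was Col1a1, with 22.7 FPKM (bounds 21.1 to 24.3) in the embryo library labelled Adar1-/- Mavs-/-, or 30.3 FPKM after scaling, against 77.9 FPKM (bounds 73.5 to 82.3) in the embryo Adar1-/- library (-1.33). Short assembled isoforms held 17.4 FPKM in the Adar1-/- Mavs-/- library and 73.1 FPKM in the Adar1-/- library. With reference isoforms only the direction turned, to 0.43, and weighted by length it was -0.39. The Col1a1 difference in embryos thus depends on short assembled isoforms at the start of the gene.

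Col18a1 had the most collagen RNA in both embryo libraries, with 46.8 FPKM in the Adar1-/- Mavs-/- library and 103 FPKM in the Adar1-/- library (-0.72). Isoforms without a full span held 29.6 FPKM of it in the Adar1-/- Mavs-/- library and 71.2 FPKM in the Adar1-/- library, and the direction turned to 0.91 with isoforms of status OK only. Col6a1 had 19.2 FPKM in the Adar1-/- Mavs-/- library and 29.6 FPKM in the Adar1-/- library (-0.20). Col6a2 had 4.07 FPKM in the Adar1-/- Mavs-/- library and 10.1 FPKM in the Adar1-/- library (-0.78).

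Col13a1 had 1.94 FPKM in the Adar1-/- Mavs-/- library and 5.58 FPKM in the Adar1-/- library (-0.87). Col23a1, a transmembrane collagen, had 6.23 FPKM in the Adar1-/- Mavs-/- library and 13.1 FPKM in the Adar1-/- library (-0.60), and its ratio turned to 3.20 with isoforms of status OK only. Col23a1 was counted in embryos and not in liver, where it had 0.109 FPKM in the liver labelled Adar1-/- Mavs-/- and 0.399 FPKM in the liver labelled Adar1-/-. Col10a1 was listed at 0 in the embryo library labelled Adar1-/- Mavs-/- and had 0.223 FPKM in the embryo Adar1-/- library. A difference between the tissues in these ratios was not tested.

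**Figure D5:**
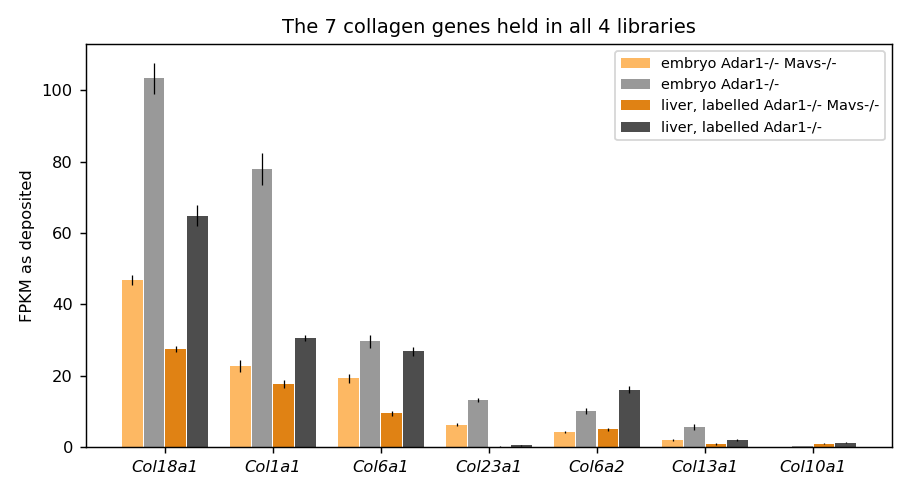
FPKM as deposited of the 7 collagens held in all 4 libraries; bars are isoform sums, vertical lines the deposited bounds, and in each tissue the bar of the library labelled Adar1-/- Mavs-/- stands left of the Adar1-/- bar. Col18a1 and Col1a1 had the most RNA in embryos, and each of the 6 genes counted in embryos was lower in the Adar1-/- Mavs-/- library before scaling.

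The related genes on the shared part of the embryo genome did not follow a single direction. Of 16 counted genes 11 were below 0 and 5 above, beside 58.5% of all counted genes below 0. At least 2-fold lower were 2 of the 16, near the 9.80% of all genes, and 0 were at least 2-fold higher. Among the synthesis genes Fkbp10 had 25.7 FPKM in the embryo library labelled Adar1-/- Mavs-/- and 17.7 FPKM in the embryo Adar1-/- library (0.92), and P4hb had 281 FPKM in the Adar1-/- Mavs-/- library and 269 FPKM in the Adar1-/- library (0.48), while both were below 0 in liver. Without a scaling factor the embryo ratios were 0.52 for Fkbp10 and 0.06 for P4hb. Under TPM they were 0.02 for Fkbp10 and -0.45 for P4hb, and length weighting turned Fkbp10 to -0.04, so the sign in embryos depends on the setting. The synthesis genes P3h4 and P4ha1 were below 0, at -0.67 and -0.55, and P3h4 turned to 0.11 with reference isoforms only. Of 5 synthesis genes 0 passed the 2-fold limit. Their median of 0.19 turned below 0 without a scaling factor (-0.19), under TPM (-0.64) and under length weighting (-0.04). Mrc2 was at least 2-fold lower in the embryo library labelled Adar1-/- Mavs-/-, at 9.62 FPKM against 27.6 FPKM in the embryo Adar1-/- library (-1.04), and so was the laminin chain Lama4, at 7.74 FPKM against 29.5 FPKM in the embryo Adar1-/- library (-1.42). With reference isoforms only Mrc2 was at 0.03 and Lama4 at 3.47, and with length weighting they were at -0.25 and -0.36. Adamts2, counted only through the library in which it was higher, was at -0.96. Timp3 was at -0.58, Timp2 at -0.43, Sparc at -0.35, Lum at -0.27, Dcn at -0.21 and Ccn2 at -0.10. Lama2 was at 0.02 and Sox9 at 0.32.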

How the data were processed

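Total RNA of 4 mouse libraries, 1 per group, was grouped by the genotype, tissue and age labels. The authors deposited FPKM per isoform with confidence bounds and a status, per the file headers; the deposited coverage signal is a fixed multiple of FPKM within a library and served as a guide to depth. The submitters' processing notes name Cufflinks 2.2.1, TopHat 1.4.0 and the mm9 build but give no role for any of them. Also named is edgeR 3.4.2. The sources used here do not state how duplicate or multiply mapped reads were treated, or whether strand is kept.

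Transcript identifiers were matched to GENCODE M21 symbols (86.7% to 90.2% matched). Assembled isoforms and unmatched identifiers took the symbol of the same Cufflinks gene that they overlapped best; isoforms with no symbol held 39.9% to 63.9% of the length-weighted FPKM and were left out. Isoform FPKM were summed per symbol, and the distances of the bounds were combined as the root of summed squares. In each tissue 1 factor, applied to the Adar1-/- Mavs-/- values, brought the median log2 ratio to 0 over genes with 5 FPKM or more in both libraries (6890 genes in liver, 972 in embryos). The pseudocount of 1 FPKM understates differences of low genes. Counting a gene required 1 FPKM in either library. With 1 library per group no test or p-value was computed, and intervals are the deposited bounds.

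The collagen classes, the 7 related lists and the 12 marker lists were chosen with earlier results of these data known. All collagens of at least 1 FPKM are named; of a related list, the 4 counted genes with the largest log2 ratio in size and the most abundant one. Alternatives were FPKM as deposited, TPM over named genes, an upper quartile factor, a pseudocount of 0.1, reference isoforms only, isoforms of status OK only, no filter, a filter of 5 FPKM and a 1.5-fold limit. Length weighting and GC centring were added after seeing the data, as was the comparison of single isoforms that span the gene and of genes of at least 1 FPKM in both libraries. Scripts were tested on simulated data. Python 3.11.15, pandas 2.3.3, numpy 2.4.6 and matplotlib 3.10.9 were used.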

Additional observations from a re-analysis of the deposited data

How the results depend on the processing

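No paired analysis was possible because each group has 1 library. In liver the count of collagens at least 2-fold lower in the liver labelled Adar1-/- Mavs-/- (16) stayed within 1.5 times in all settings but GC centring (9), and it ran from 9 to 21 with the 1.5-fold limit included. The share of all genes was 9.73% beside the 16, 7.70% beside the 9 and 23.2% beside the 21. The count of collagens at least 2-fold higher was 0 except with length weighting (1, Col20a1). The liver median of -1.13 was -1.35 with TPM, -1.40 with a pseudocount of 0.1, -0.64 with no filter and -0.86 with GC centring.

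The count of related genes at least 2-fold lower was 20 of 77, beside 9.73% of all genes. It was 34 with TPM, beside 15.7% of all genes, and 38 with a pseudocount of 0.1, beside 15.3%. It was 13 at 5 FPKM or more, beside 9.22%, and 12 with GC centring, beside 7.70%. The count at least 2-fold higher (0) was 2 with a pseudocount of 0.1, 1 with reference isoforms only, 3 with status OK and 1 with length weighting. The fibrillar share of collagen FPKM was 43.8% in the library labelled Adar1-/- Mavs-/- and 44.0% in the library labelled Adar1-/- with reference isoforms only, 67.0% and 61.7% with status OK, and 54.5% in the library labelled Adar1-/- Mavs-/- with length weighting.

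In embryos the count of collagens at least 2-fold lower was 1, beside 9.80% of all genes. It was 4 with FPKM as deposited, beside 16.7% of all genes, and 6 with TPM, beside 38.4%. It was 2 with a pseudocount of 0.1, beside 14.0%, and 2 with reference isoforms only, beside 12.9%. It was 5 at 1.5-fold, beside 20.3%, and 0 with length weighting, beside 6.30%. With status OK 1 gene was at least 2-fold higher. The embryo median (-0.75) was -1.13 with FPKM as deposited, -1.51 with TPM, -0.34 with reference isoforms only, -0.49 with status OK and -0.30 with length weighting. Embryo Col1a1 turned to 0.43 with reference isoforms only. Other scalings shifted all log2 ratios before the pseudocount, in liver by -0.32 with TPM and 0.13 with the upper quartile, and in embryos by -0.42 as deposited, -0.94 with TPM and 0.12 with the upper quartile. Read depth is unknown, which leaves the precision of low collagens to the deposited bounds.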
